A study of Mus musculus with 18 samples.

Results

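The 2 mature arms of the microRNA precursor miR-744, mmu-miR-744-5p and mmu-miR-744-3p, were followed through all 18 small RNA libraries of the series. They are 2 of the 1431 mature miRNAs listed in every library. The pair was selected on its measured counts: the 5p arm differed by over 25-fold between libraries of the same organ in eye and lung, while the 3p arm and the testicle values were steady. That unevenness is therefore described here and not tested. The libraries came from the left eye, right eye, left lung, right lung, left testicle and right testicle of male C57BL/6 mice aged 8 to 12 weeks, with 3 libraries in each group. The labels name no treatment, and all groups share strain, sex and age range. The labels do not say whether the left and right organ, or organs with the same number, came from the same mouse, so the p-values below measure the spread between these libraries.

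A miRNA hairpin is cut from its primary transcript by Drosha and then by Dicer, which leaves a short duplex of a 5p and a 3p strand. Usually one strand is loaded into Argonaute and kept while the other is degraded, so the arms of one hairpin can differ widely in abundance, although they start from the same precursor in equal numbers. The loaded strand finds its target mRNAs mainly through its seed, bases 2 to 8 counted from the 5′ end. In cell culture miR-744-5p is known for repressing the growth factor TGF-beta 1 in human cells and for raising cyclin B1 expression in mouse cells. Its roles in eye, lung and testicle are less well described.

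Both arms lie in the precursor Mir744, at chr11:65734733-65734832 on the minus strand of GRCm38.p6. The precursor sits inside Map2k4 (chr11:65688243-65788297, also minus strand), which encodes a kinase that activates the JNK and p38 pathways. In the GENCODE M21 annotation 5 of the 7 Map2k4 transcripts span it, and it overlaps an exon in 0 of these 5, so it is intronic (between exons 3 and 4 in transcript Map2k4-201). The RefSeq hairpin, 100 bases long, is shown with both mature arms in capitals because the results turn on the difference between these 2 stretches of one molecule.
Mir744 hairpin: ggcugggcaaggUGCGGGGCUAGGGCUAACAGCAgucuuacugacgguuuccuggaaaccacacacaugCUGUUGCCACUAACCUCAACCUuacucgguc

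The mature arms are shown with the seed in capitals. The 5p arm occupies chr11:65734799-65734820 and the 3p arm chr11:65734742-65734763.
miR-744-5p: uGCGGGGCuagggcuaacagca
miR-744-3p: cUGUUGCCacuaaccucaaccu
Each arm is 22 bases long. In the predicted fold of lowest free energy (-44.8 kcal/mol, RNAfold) 16 bases of the 5p arm pair with the 3p arm. The 5p arm is the richer in G and C, at 63.6% against 50% for the 3p arm, and holds 9 G against 2. RefSeq gave a mature sequence for 1209 of the 1431 listed miRNAs. Of those, 83.1% had a lower G and C content than the 5p arm and 41.7% a lower one than the 3p arm. No other of these sequences had the seed of either arm (0 and 0), and the nearest one differed from each arm by 7 edits. No stretch of 12 bases of either arm occurred in another of them. No other name in the tables carried counts identical to either arm in all libraries.

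Facts of the whole series that bear on these values are few. Total counts were 2451484 to 2680204 in eye, 2538402 to 2790471 in lung and 952608 to 1893132 in testicle libraries. Summed over each list, marker miRNAs of an organ were highest in the libraries named for it. Single markers need not be: miR-871-3p of the testicle list had 34 counts in right testicle 3 and 70 in right lung 3. It had 16109 to 26285 counts in left testicle 2 and right testicles 1 and 2. The 8 eye markers summed to 280213 to 315709 CPM (counts scaled to a library total of 1e6) in eye libraries and at most 28568.2 elsewhere. The 6 lung markers summed to 101080 to 112205 CPM in lung libraries and at most 33854.9 elsewhere. The 9 testicle markers summed to 136313 to 163601 CPM in testicle libraries and at most 20289.8 elsewhere. That last maximum was in a lung library, and the list includes miR-34c-5p and miR-449a-5p, which ciliated airway cells also make. The part of these miRNAs in that sum was not tested.

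In the eye, miR-744-5p was present at 2 levels far apart. Left eye 1 had 871 counts and left eye 3 had 1239, whereas left eye 2 had 15. The right eyes had 7, 11 and 20 counts in libraries 1, 2 and 3. Thus 2 left eyes were high, and the remaining left eye lay within the range of the 3 right eyes. The highest eye library was 170-fold above the lowest in CPM. The partner strand, the 3p arm, did not have these levels. Left eyes 1, 2 and 3 had 84, 90 and 114 counts of miR-744-3p, and right eyes 1, 2 and 3 had 73, 82 and 52. The library with the second most 3p counts, left eye 2, was among the low ones for 5p. The 3p arm spanned a 2.06-fold range in CPM over the 6 eyes.

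The lung showed the same 2 levels in another set of libraries. Left lungs 1, 2 and 3 had 1012, 20 and 1821 counts of miR-744-5p. Right lungs 1, 2 and 3 had 12, 1207 and 38. The high libraries were 2 left lungs and 1 right lung, so both sides held both levels, and the range was 141-fold in CPM. The 3p arm had 65, 94 and 67 counts in left lungs 1, 2 and 3 and 83, 78 and 55 in the right lungs, a 1.72-fold range. Right lung 2, high for 5p, lay between right lungs 1 and 3 in 3p, both of which were low for 5p.

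The testicle showed 1 level. Left testicles 1, 2 and 3 had 301, 408 and 252 counts of miR-744-5p, and right testicles 1, 2 and 3 had 322, 360 and 338, with a 1.66-fold range in CPM. MiR-744-3p had 18, 23 and 27 counts in the left testicles and 20, 27 and 25 in the right ones, a 1.71-fold range. No testicle library resembled the low eye or lung libraries.

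Over the 12 eye and lung libraries, 5 held 871 to 1821 counts of miR-744-5p and 7 held 7 to 38, with none between. The counts of miR-744-3p overlapped between these libraries, at 65 to 114 in the 5 and 52 to 94 in the 7. Of the 5, 4 were left organs and 1 was a right organ. Eye and lung libraries with the same side and number were at the same level in 5 of 6 cases. The exception was number 2 on the right, with 11 counts in the eye and 1207 in the lung. These counts are a description, since the levels were what chose the miRNA.

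**Figure D1:**
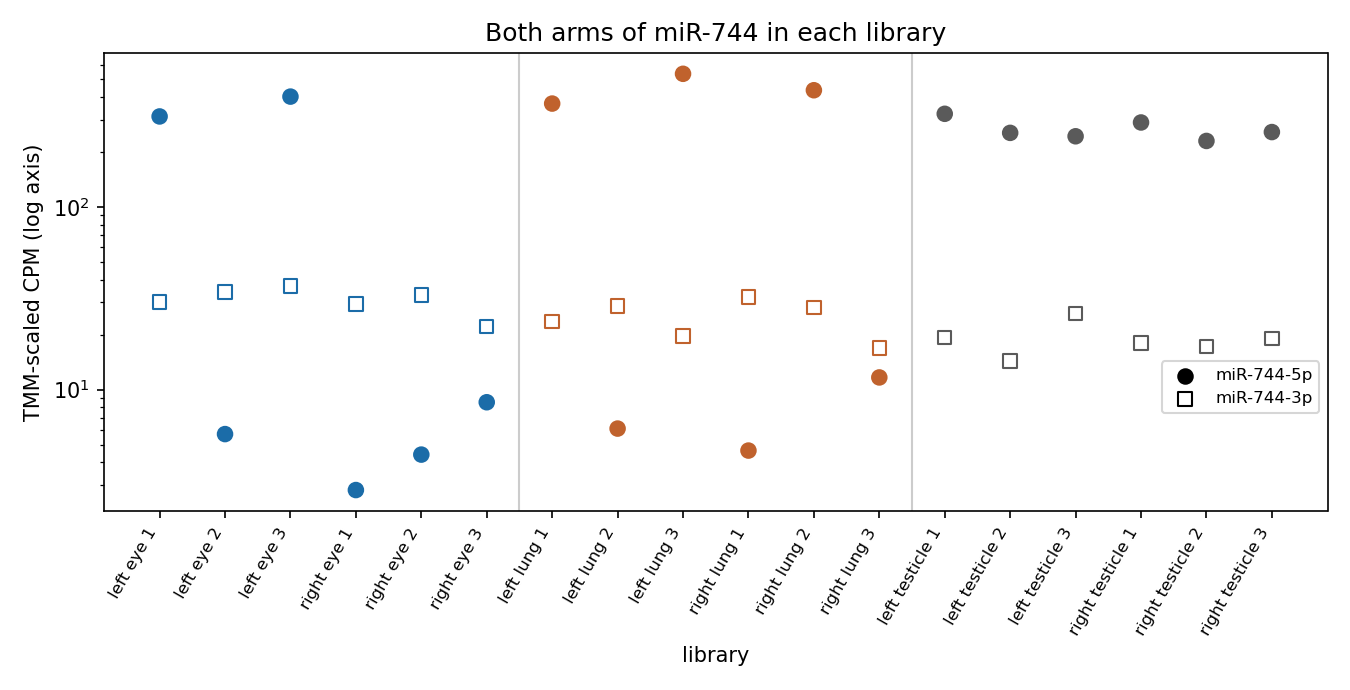
TMM-scaled CPM of miR-744-5p (filled circles) and miR-744-3p (open squares) on a log axis, 1 point per library and arm, with eye in blue, lung in orange and testicle in grey. The 5p points lie between 229 and 535 CPM in 11 libraries and between 2.82 and 11.6 in 7, while the 3p points stay between 14.3 and 36.9.

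The order of the libraries used CPM scaled by the trimmed mean of M values (TMM), which corrects library totals for composition. The highest miR-744-5p level was 535 CPM in left lung 3, followed by 435 in right lung 2 and 401 in left eye 3. The 6 testicle libraries ran from 229 to 323 CPM, a range that also held left eye 1 at 312. Right lung 3, the highest of the low libraries, had 11.6 CPM, and the gap between it and the lowest testicle library was the widest in the order. By organ the mean was 266 ± 34.3 CPM in testicle, 227 ± 246 in lung and 123 ± 184 in eye (SD, n = 6 each). For lung and eye the SD exceeded the mean, so these means describe no actual library. MiR-744-3p had 30.9 ± 5.11 CPM in eye, 24.8 ± 5.83 in lung and 18.98 ± 3.91 in testicle (SD, n = 6 each).

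The share of the 5p strand among the counts of both arms needs no scaling between libraries. In the testicle it was 90.3% to 94.7%, so the 5p arm was the dominant strand in all 6 libraries. Left eyes 1 and 3 had shares of 91.2% and 91.6%, and left lung 1, left lung 3 and right lung 2 had 94.0%, 96.5% and 93.9%. These 5 libraries were in or near the testicle range. In the others the 3p strand was in the majority. Left eye 2 had a 5p share of 14.3% (exact Clopper-Pearson 95% interval 8.22% to 22.5%), and right eye 1, with 7 of 80 counts, had 8.75% (3.59% to 17.2%). Right eyes 2 and 3 had 11.8% and 27.8%, left lung 2 had 17.5% and right lung 1 had 12.6%. Right lung 3 came closest to equal arms, at 40.9% (30.8% to 51.5%). Such intervals cover counting error only, since PCR copies of one molecule cannot be recognised without molecular identifiers.

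**Figure D2:**
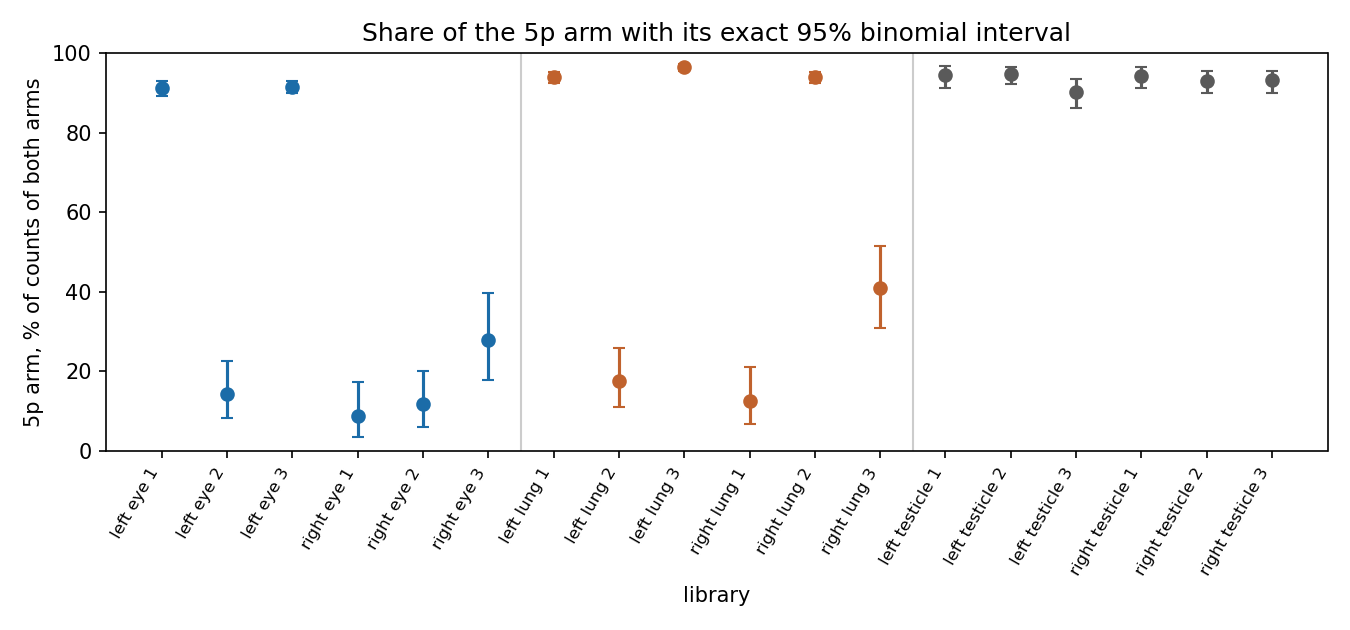
Counts of miR-744-5p as a percentage of the counts of both arms in each library, with exact 95% binomial intervals as bars and eye in blue, lung in orange and testicle in grey. All testicle libraries, 2 eye libraries and 3 lung libraries lie above 90%, and the remaining 7 have intervals that end at or below 51.5%.

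Expressed as log2(5p/3p) with 0.5 counts added to each arm, the arm ratio averaged -0.54 ± 3.12 in eye, 1.20 ± 3.40 in lung and 3.79 ± 0.33 in testicle (SD, n = 6 each). The ratio is built from the counts that chose the pair, so the organs are described by it without a test. Eye minus testicle was -4.33 and lung minus testicle -2.60. The eye mean mixes the 2 levels: in left eyes 1 and 3 the log2 ratio was 3.37 and 3.44, within the testicle range of 3.20 to 4.12, and the other 4 eyes lay between -3.29 and -1.36. Eye minus lung was -1.74, but -1.02 without left lung 3 and -3.66 as a difference of medians.

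To place the spread of the arm ratio, the same ratio was computed for every hairpin with a mean of at least 50 counts per library of each arm. In the eye 73 hairpins qualified, and the highest minus the lowest log2 ratio over the 6 libraries had a median of 0.97. MiR-744, at 6.73, ranked 2 behind miR-532 (16.5) and ahead of let-7i (4.24), miR-770 (3.21) and miR-211 (2.49). In the lung 68 hairpins had a median range of 1.76, and miR-744, at 7.49, again ranked 2, between miR-532 (10.5) and miR-221 (7.42). MiR-30e (5.66) and miR-34b (4.83) followed. In the testicle the 3p arm of miR-744 was below the count minimum. Its ratio spanned 0.92 there, while the median over 63 hairpins was 1.23 and miR-532, miR-878, miR-743b, miR-465c and miR-871 ranged from 9.41 to 14.9. These ranges follow from the same counts that chose miR-744.

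**Figure D3:**
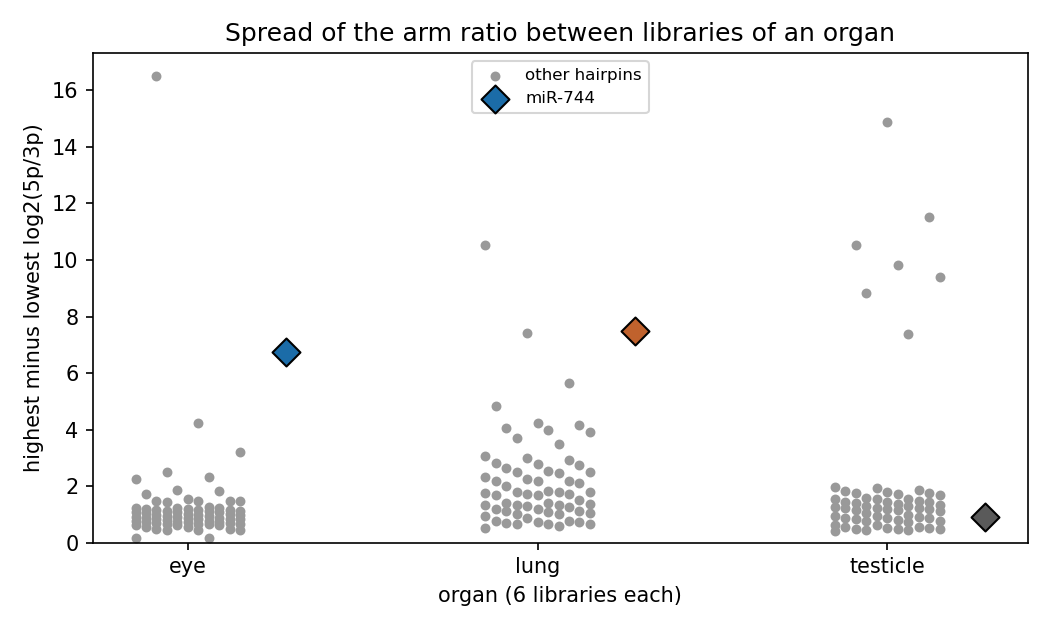
Highest minus lowest log2(5p/3p) over the 6 libraries of each organ, with 1 grey point per other hairpin with a mean of at least 50 counts of each arm and a diamond for miR-744 beside the column, drawn in testicle too although its 3p arm is below that minimum there. MiR-744 lies near the top in eye (6.73) and lung (7.49) and below the median of the other hairpins in testicle (0.92 against 1.23).

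A range over 25-fold was rare among single miRNAs with a mean of at least 50 CPM in an organ, when counts under 3 were set to 3. In the eye 3 of 267 miRNAs exceeded it: miR-532-5p (417-fold), miR-744-5p (170-fold) and miR-297c-5p (at least 134-fold). Just under the threshold in eye was let-7i-3p, at 17.2-fold. In the lung 2 of 231 exceeded it, miR-532-3p (at least 154-fold) and miR-744-5p (141-fold), and just under it were miR-124-3p (22.9-fold), miR-184-3p (21.6-fold) and miR-33-5p (18.2-fold). At this minimum level miR-744-5p was the 1 miRNA above 25-fold in both organs. With a minimum of 10 CPM, or with none, there were 4: miR-297c-5p, miR-532-3p and miR-669c-5p joined it, and the step is not particular to miR-744-5p. In the testicle 13 of 290 exceeded it and miR-744-5p ranked 165, close to the median of 1.74-fold.

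The other miRNAs with such steps did not follow the same libraries. MiR-532-5p had 5257 to 7155 counts in left eyes 1 and 3 and right eyes 1 and 2, and 16 and 23 in left eye 2 and right eye 3. It was therefore high in right eyes 1 and 2, where miR-744-5p was low. In all 6 lungs miR-532-5p lay between 3816 and 6792 counts, with no low library. MiR-532-3p had 430, 258 and 216 counts in left lung 1, left lung 2 and right lung 2, and at most 3 in the other 3 lungs. Left lung 3, with the most miR-744-5p, had 3 counts of it. In the eye miR-532-3p had 107, 454 and 82 counts in left eye 2, right eye 1 and right eye 3, all low for miR-744-5p, and 0 in the other eyes, of which right eye 2 was low for miR-744-5p as well. MiR-297c-5p had 374, 318 and 215 counts in left eye 2, left eye 3 and right eye 3 and at most 2 in the other eyes, so left eye 3 was the 1 eye library high for both it and miR-744-5p. In the lung it had 174 counts in right lung 2 and 0 elsewhere. MiR-669c-5p had 3 counts in left eye 3 and 0 in left lung 1 and right lung 2, 3 libraries high for miR-744-5p. In the other eyes it had 85 to 189 counts and in the other lungs 74 to 163, left eye 1 and left lung 3 included.

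Few miRNAs resembled miR-744-5p over the 12 eye and lung libraries. Likeness was Pearson's r of log2(CPM + 1) after each organ's mean was subtracted, over 397 other miRNAs with a mean of at least 10 CPM in these libraries. The highest values were miR-935 (r = 0.67), miR-20b-5p (0.66), miR-467d-5p (0.59), miR-29a-5p (0.56) and miR-99b-3p (0.56). Since miR-744-5p takes 2 separate levels, these r values reflect mainly which libraries are on which level, and all libraries share their total with the miRNA compared. None of the 5 had comparable steps: the widest range within an organ was 4.31-fold, for miR-29a-5p in lung. MiR-935 is one example, with 92 and 118 counts in left eyes 1 and 3 and 29 to 74 in the other eyes. It reached the minimum level through the eye (mean 25.8 CPM, against 2.27 in lung), and its lung libraries had 5 to 10 counts. At the other end were miR-341-3p (r = -0.77), miR-7a-5p (-0.73) and miR-344-3p (-0.70), whose ranges within eye or lung were at most 4.65-fold. The 3p arm of the same hairpin had r = -0.01. MiR-744-3p was most like miR-34b-3p (r = 0.89), miR-1843a-3p (0.84) and miR-149-5p (0.81), each over the same 12 libraries.

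Other properties of the libraries varied beside miR-744-5p in part. Left eyes 1 and 3 had the largest totals of the eyes (2680204 and 2612736 counts, against 2451484 to 2512587). They also had the highest sum of the 5 red cell markers, at 4418 and 2582 CPM of the total against 1391 to 2324, and the lowest sum of the 8 eye markers, at 280213 and 283526 against 294682 to 315709. In the lung the totals overlapped, with 2595288, 2790471 and 2538402 in the libraries with 1012, 1821 and 1207 counts and 2597041 to 2734116 in the others. Red cell markers also overlapped there, at 2353 to 3495 and 1828 to 6981 CPM. The sum of the 5 leukocyte markers was 12258.5 to 14020.6 CPM in these 3 lungs and 9228 to 12155.8 in the others, while in eyes it overlapped. Further measures overlapped between libraries high and low for miR-744-5p in both eye and lung. These were the number of miRNAs with a count and the sums of the lung, testicle and 6 striated muscle markers. The sum of the eye markers overlapped in the lung. Each red cell, leukocyte and eye marker had counts in every organ. The part of these properties in the levels of miR-744-5p was not tested.

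Between organs, both arms were compared in one fit over all miRNAs with edgeR's quasi-likelihood test. The pair was chosen on its spread within organs, which is the error of this test, and on the same counts. The p-values and calls are therefore not independent of that choice. They describe these libraries and are not read as support for a difference between organs. In this fit the level of an organ is the average of its 2 sides on the log scale, and both members passed the filter on low counts. MiR-744-5p was lower in eye than in testicle, at -2.90 on the log2 scale (SE 1.08, edgeR adjusted p = 0.0217), and 509 of 642 miRNAs (79.3%) were called in that comparison. The eye was also below the lung, at -2.58 on the same scale (SE 1.07, edgeR adjusted p = 0.0472), where 59.8% were called. Between lung and testicle it was not called (-0.32, SE 0.98, 95% interval -2.40 to 1.77; edgeR adjusted p = 0.793), where 76.5% were called. A member's call is thus near the common outcome for a miRNA in these comparisons. By fitted level the order of the organs in these libraries was testicle, lung, eye. The order of testicle and lung changed with the scaling, and no separation of organs is read from these fits.

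The eye differences of the 5p arm rested on how sides were averaged. The right eyes had 5.25 ± 2.94 CPM and the left eyes 240 ± 208 (SD, n = 3 each), and an average on the log scale gives weight to the low side. The plain means were 1.85 times higher in lung than in eye and 2.17 times higher in testicle. With organ as the only term, the log2 fold change was -0.88 for eye against lung and -1.12 for eye against testicle, and neither was called. Without right lung 2 the eye against lung value was -0.69 and was not called, and lung against testicle became -2.41 and was called. Without left eye 1, 2 or 3, right eye 1 or left lung 3, eye against lung was also not called (-2.88 to -2.24). Robust dispersion ended the same call (-2.58, edgeR adjusted p = 0.0798, with a range of 2.62e-16 to 0.539 over all alternatives). So did a block for the replicate number (-2.69, edgeR adjusted p = 0.0693).

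MiR-744-3p ran in the opposite order in these libraries, with eye above testicle. The choice of the pair used the steady values of this arm, so its SEs and calls are likewise description only. MiR-744-3p was higher in eye than in testicle, by 0.71 on the log2 scale (SE 0.21, edgeR adjusted p = 0.0056). Of the 642 miRNAs, 258 were higher in eye (40.2%). It was not called for eye against lung (0.31, SE 0.20; edgeR adjusted p = 0.194) or lung against testicle (0.39, SE 0.21; edgeR adjusted p = 0.0982). Without right testicle 1 or 3 the eye against testicle value was 0.50 or 0.51 and was not called. The sign for eye against lung depended on the scaling, with -0.37 when left testicle 1 was the TMM reference, and lung against testicle was called with RLE scaling (0.64) and with library sizes alone (0.78).

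**Figure D4:**
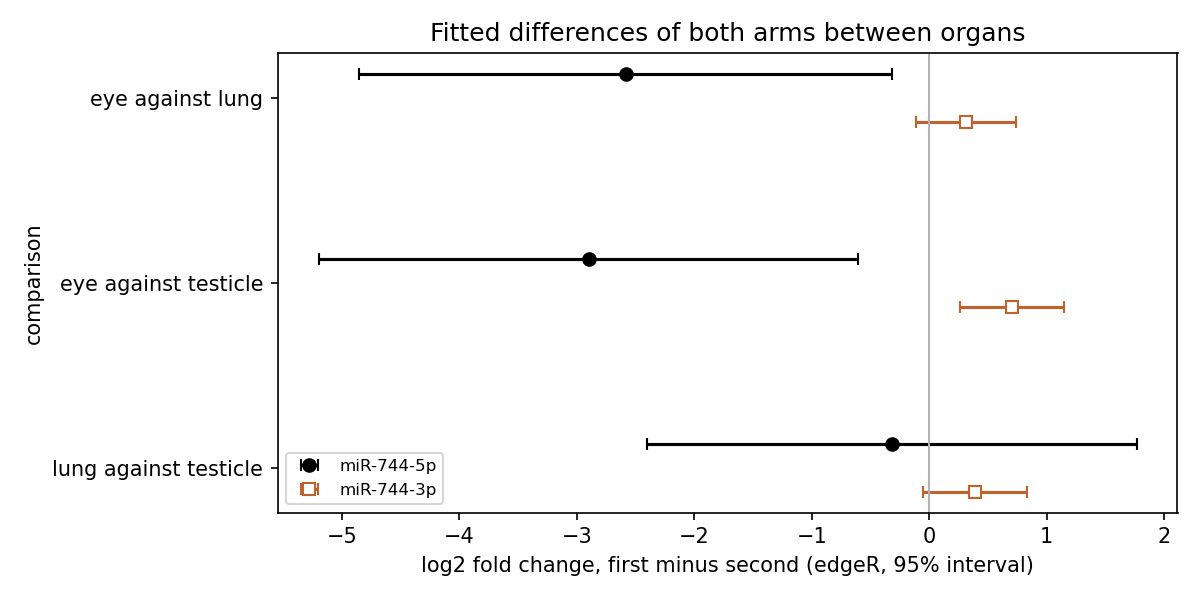
Log2 fold changes of miR-744-5p (black circles) and miR-744-3p (orange open squares) between organs from edgeR, first minus second in each comparison, with 95% intervals as bars. The intervals of the 5p arm are wide (-4.85 to -0.31 for eye against lung) and those of the 3p arm narrow (-0.11 to 0.74). The pair was chosen for an uneven 5p arm and a steady 3p arm, so this contrast follows from the choice.

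The sides of each organ were fitted against each other on its 6 libraries. For the members these differences use the within-organ values that chose the pair, so they are given with no test. In the eye miR-744-5p had a left minus right log2 fold change of 5.50. The left eyes were above the right ones in 2 of 3 libraries, and left eye 2 overlapped them. In the lung the left minus right value was 1.13, and single libraries moved it widely. It was 5.09 without right lung 2 and 1.71 without left lung 2, but 0.46, 0.56 and 0.60 without left lung 3, right lung 1 and right lung 3. In the testicle it was 0.28. The 3p arm differed by 0.27, -0.20 and 0.31 in eye, lung and testicle. Over all miRNAs, edgeR called 0% in each organ (0 of 487, 430 and 464), with 18, 1 and 36 at an unadjusted p under 0.05. DESeq2 called 1, 0 and 1. The eye counts of 18 and 1 include miR-744-5p, whose own result is not read. A joint edgeR test of side by organ called 0 of 642 miRNAs (0%), with 21 at an unadjusted p under 0.05, and DESeq2 was not run for it.

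For comparison, a list of other miRNAs known from introns of broadly expressed genes was described, chosen from general knowledge. Of its 45 listed arms, 39 were tested between organs. In eye against lung 3 were higher, 11 lower and 25 not called, where 35.4% of all miRNAs tested were higher and 24.5% lower, with a median log2 fold change of -0.22 against 0.00 over all miRNAs tested. In eye against testicle 6 of the 39 were higher and 17 lower, beside 40.2% and 39.1% of all miRNAs (median -0.50 against 0.05). In lung against testicle 13 were higher and 18 lower, beside 27.4% and 49.1% of all miRNAs (median -0.72 against -0.90). None of the arms tested was called between sides (0 of 35 in eye, 0 of 35 in lung and 0 of 38 in testicle). The 4 most abundant were even within organs: miR-26a-5p, miR-16-5p, miR-191-5p and miR-151-5p spanned at most 1.93-fold in any organ. MiR-26a-5p, whose copies lie in introns of Ctdsp phosphatase genes, had 41744 ± 4009 CPM in eye and 45100 ± 7563 in lung (SD, n = 6 each). Over the list members with a mean of at least 10 CPM, the median range was 1.46-fold in eye and 2.26-fold in lung, and the widest were miR-107-3p in eye (18.1-fold) and miR-33-5p in lung (14.9-fold).

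Listed miRNAs near Mir744 on chromosome 11 that passed the filter on low counts did not show the steps either. Those nearest, miR-6923-5p (1.36 Mb away) and miR-3062-5p (3.26 Mb), had 7 and 6 counts over all libraries, too few to show a step. Within 5 Mb of Mir744 there were 15 other listed arms, and 6 of these passed the filter, namely miR-1934-5p, both arms of miR-324, miR-497a-5p and both arms of miR-195a. MiR-497a-5p, 4.50 Mb away, spanned 1.30-fold in eye (1035 ± 94.1 CPM) and 1.94-fold in lung (7216 ± 1521 CPM, SD, n = 6 each). Among the 6, the widest range was that of miR-324-5p, 4.28 Mb away, at 9.22-fold in lung, from 16 to 194 counts.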

How the data were processed

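Small RNA of 18 libraries was analysed from counts. Total RNA was extracted on spin columns and libraries followed the BGI-500 protocol, per the labels' protocols, and the submitters' processing notes name GRCm38.p6. Each deposited file lists raw read counts by mature miRNA name. The sources used here do not give the aligner, the counter or the treatment of multi-mapping reads and isomiRs, so how many reads near each arm entered a count is unknown.

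Groups came from the labelled tissue. Differences in counts were estimated in R 4.3.3 with edgeR 4.0.16 (filterByExpr, TMM, quasi-likelihood test, Benjamini-Hochberg adjustment over all miRNAs at 0.05), between organs on 18 libraries and between sides on 6. Exact permutation tests of the arm ratios (SciPy 1.17.1) and the members' tests between sides are not read, because the counts behind them chose the pair. For the same reason the members' calls between organs are given as description only. Alternatives included DESeq2 1.42.0, other scalings, no filter, left-out libraries and a replicate block. An organ-only fit and lower minimum levels for the 25-fold count were added after seeing the data. The fits were tested on simulated counts. These were drawn from a common mean profile with set folds and did not model separate levels within an organ. The simulation therefore does not cover a miRNA such as miR-744-5p. Libraries of a group differed by more than sampling noise in all 18 pairs (chi-square per degree of freedom 61.7 to 551). Named miRNAs are both members, those most alike in r, the hairpins of widest ratio, neighbours within 5 Mb, and the 4 most abundant of the host-gene list. Those over 25-fold were chosen after their values were seen. Members and lists were chosen with earlier results of these data known. Sequences and positions are from RefSeq (GRCm38.p6).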

Additional observations from a re-analysis of the deposited data

How the results depend on the processing

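The 15 values for the members had 13 to 21 alternatives each, 249 in all, of which 217 kept the direction and the side of the threshold. That total includes the arm ratios and side differences, whose threshold is not read. Between organs miR-744-5p kept both in 12 of 21 for eye against lung, 20 of 21 for eye against testicle and 17 of 21 for lung against testicle. For miR-744-3p these were 19, 18 and 14 of 21. The cause of the other outcomes was not tested. With the organ-only fit, miR-744-5p gave -0.88 for eye against lung and -1.12 for eye against testicle, both no longer called. With robust dispersion (-2.58) and the replicate block (-2.69), eye against lung was not called. Without filter, miR-744-3p gave 0.64 for eye against testicle, not called. The counts that chose the pair also give the arm ratios and side differences, so only their sizes are given. Eye against testicle in arm ratio was -4.33 with the replicate block, which changes only the permutations and so cannot change the size. MiR-744-5p for left against right eye was 5.53 without filter and 5.52 with DESeq2. For lung against testicle, miR-744-5p reversed with library sizes only (0.070) and with left testicle 1 (0.19) or left lung 1 (0.25) as TMM reference, and miR-744-3p was called with RLE (0.64), library sizes only (0.78), these references (0.91 and 0.96) and DESeq2 (0.65). MiR-744-3p reversed for eye against lung with left testicle 1 as reference (-0.37) and for left against right lung with library sizes only (0.014). Without one replicate at a time, miR-744-5p ranged from -3.20 to -0.69 for eye against lung (6 of 12 not called), from -2.41 to -0.029 for lung against testicle (1 of 12 called) and from 4.97 to 6.13 for left against right eye. MiR-744-3p then ranged from -0.48 to 0.33 for eye against lung (reversed without right eye 2), from 0.50 to 0.82 for eye against testicle, from 0.30 to 0.54 for lung against testicle (called without right lung 3 or left testicle 3) and from -0.40 to 0.10 for left against right lung (reversed without right lung 1).

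Left and right libraries of an organ with the same number correlated in their deviations from group means at -0.42 to 0.40. Since this was over 0.1 in 4 of 9 pairs, the numbers were not taken to pair the sides. Whether equal numbers pair the organs was not tested. Apart from miR-744-5p for eye against lung, the block changed no call of a member between organs. It moved miR-744-5p for left against right lung from 1.13 to 3.99. Calls between sides were 0 in each organ and at most 6 in eye (no filter) and 1 in lung or testicle under the alternatives. The 6 in eye include miR-744-5p. Counts between organs stayed within 1.5 times. Counts of 7 to 38 limit the precision of the low miR-744-5p values.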
